A study of Mus musculus with 1600 samples.

Results

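The 7 genes described here, Shh, Ptch1, Gli1, Gli2, Gli3, Hand2 and Grem1, carry the Hedgehog signal of the limb and the posterior programme around it. They were taken by gene symbol from a table of 22092 gene symbols in single mouse limb cells, and all 7 had an entry. The cells came from hind limbs of C57BL/6 embryos with a Scx-GFP transgene, a reporter of the tendon factor scleraxis that all 3 groups carry, at the embryonic stages E10.5, E12.5 and E15.5. Each stage was a pool of limbs from siblings of 1 litter, dissociated with enzymes and captured on a microfluidic chip, so that each cell gave its own library. Each stage is therefore 1 sample. No test between stages was possible, and every difference below is a description of these samples. The 120, 160 and 200 cells of E10.5, E12.5 and E15.5 fell into 3, 4 and 5 library pools of 40 cells that share a number in their index label. The spread between those pools holds technical differences and which cells each pool contains, and does not stand for the spread between litters.

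Hedgehog ligands act by binding Patched receptors, which releases Smoothened and lets the GLI transcription factors switch target genes on. Without ligand, GLI3 and in part GLI2 are cut into repressor forms. In the mouse limb bud SHH is made by the zone of polarizing activity in the posterior mesenchyme and patterns the digits, with HAND2 upstream of it and GLI3 opposing it in the anterior. Gremlin 1 is a secreted antagonist of bone morphogenetic proteins (BMPs) that links SHH to the FGFs of the apical ectodermal ridge. IHH, made by cartilage cells that are about to enlarge, takes over as the limb's main Hedgehog ligand once cartilage forms.

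Cells needed at least 1000 detected genes, which dropped 3 and kept 119, 158 and 200, with 33742559, 46009284 and 46035725 reads counted to genes. The median cell had 272198, 250710 and 192228 counts in the 3 samples, by age, and the range over all kept cells was 2681 to 1185267. Genes that mark limb identity did not match the label of the earliest sample. Tbx5, a forelimb gene, stood at 67.9 CPM (the summed count scaled to the total of all genes) at E10.5 with a count in 87 of 119 cells, and at 0.739 and 6.32 CPM at E12.5 and E15.5. Pitx1, a hindlimb gene, had 0 counts at E10.5 against 169 and 68.7 CPM at the later stages. All ratios to E10.5 below thus also compare a sample that reads a forelimb gene with samples that read a hindlimb gene, and stage and limb identity cannot be told apart in them.

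The promoter of Grem1 is shown because it was the only one of the members' promoters on file that held the core of the GLI binding site. The RefSeq promoters of build GRCm38.p6 covered 5 of the 7 members, Ptch1, Gli2, Gli3, Hand2 and Grem1. Shh and Gli1 had no entry. The full site searched was GACCACCCA and its core was CCACCCA, on both strands, over the 300 bases from 250 before to 50 after the RefSeq start of each gene. That start lies 7863 bases inside the GENCODE span given below for Ptch1 and 488 bases inside it for Gli3, so the outer starts of these genes were not searched. Every full site holds the core within it. The full site was in none of the 5 promoters and in 0.253% of 32851 promoters of that length. The core was in the Grem1 promoter alone of the 5, and in 9.30% of the 32851 promoters. The 250 bases before the Grem1 start lie at chr2:113758649-113758898 on the minus strand, and the core is in capitals at bases 27 to 33 of the run.
Grem1: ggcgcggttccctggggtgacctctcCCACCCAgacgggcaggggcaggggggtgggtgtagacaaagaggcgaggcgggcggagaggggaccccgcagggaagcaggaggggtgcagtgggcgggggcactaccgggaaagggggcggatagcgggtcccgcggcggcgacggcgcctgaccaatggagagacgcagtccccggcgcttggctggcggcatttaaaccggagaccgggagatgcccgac
The match describes the letters of this window only and says nothing of binding.

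Of the 7 members, Hand2 rose and Grem1 fell at E12.5 against E10.5, Hand2 fell at E15.5 against E12.5, and Gli3 fell over the whole span. A member is called changed here when the log2 ratio of its CPM, with 5 CPM added to each, passed 1 in size and the pools of the 2 stages did not overlap. Leaving a pool out cannot make separate pools overlap, so it can undo a call only through the threshold. With fewer pools the rule is easier to pass. At E12.5 against E10.5, 1 member was called higher and 1 lower, beside 7.76% higher and 2.83% lower (10.6% in either direction) of all 13125 genes with a count in at least 10 cells. At E15.5 against E12.5, 0 members were called higher and 1 lower, beside 2.99% and 1.63% (4.62% either way) of all genes. At E15.5 against E10.5, 0 were called higher and 1 lower, beside 11.2% and 5.01% (16.2% either way). Shh, read in 4 cells, was not among the genes counted. With 7 members these counts are too small to set the group apart from other genes. The median log2 ratio over all genes was 0.16, -0.04 and 0.15 in the 3 comparisons. In sums over cells, fewer cells that express a gene and less RNA per cell cannot be told apart.

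**Figure D1:**
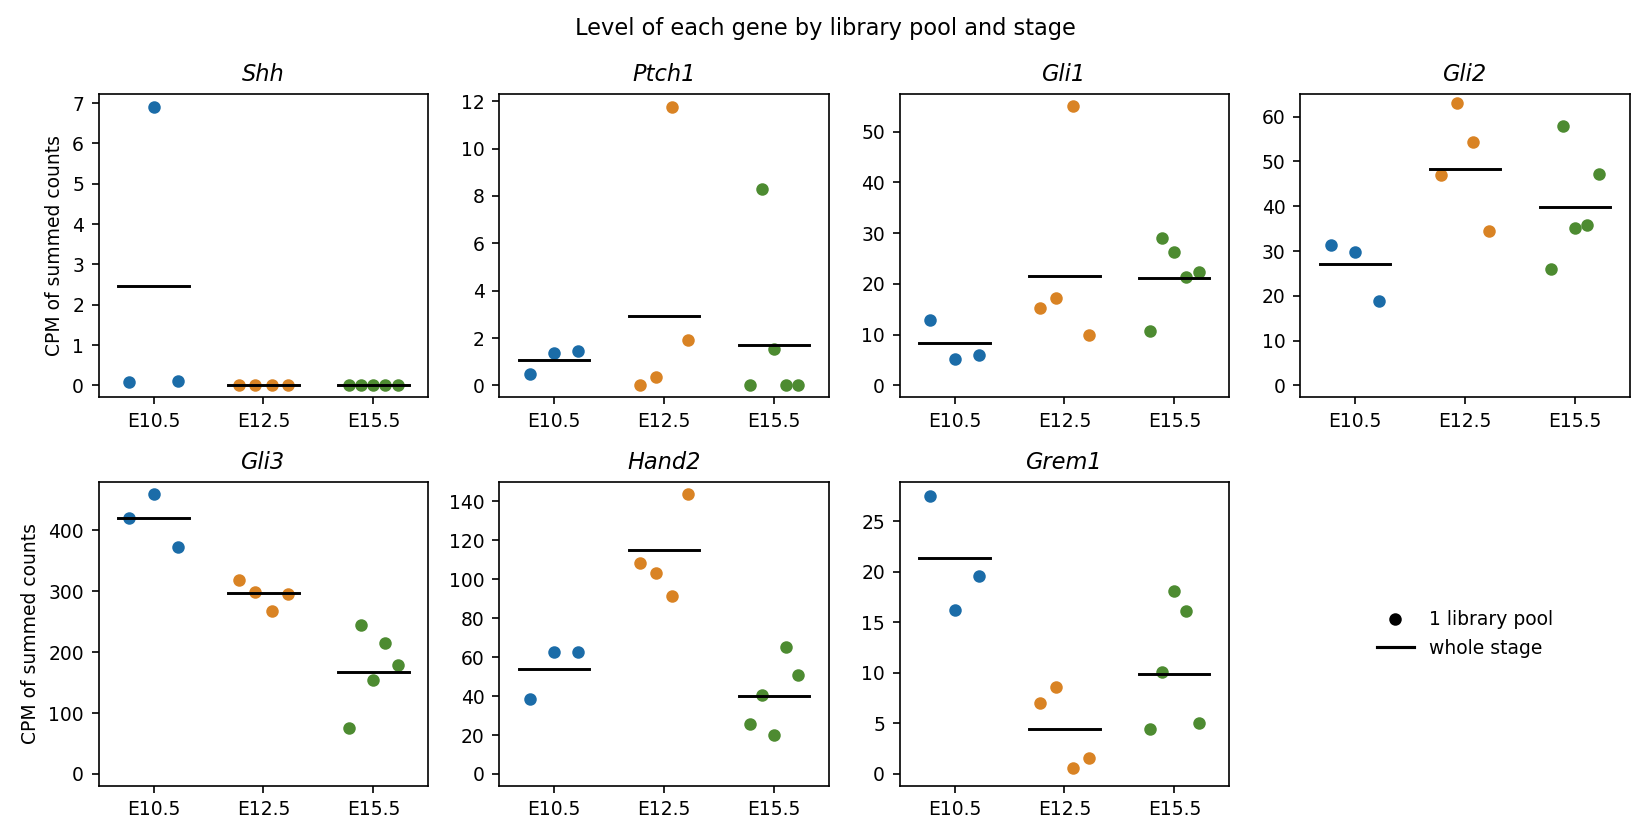
Level of each member in CPM (y axis, linear from about 0) in each library pool, by stage. Points are pools and bars the level of the whole stage. Gli3 is lower in all E15.5 pools (75.3 to 245 CPM) than in all E10.5 pools (372 to 460.3 CPM), and Shh is above 1 CPM in a single pool.

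Shh, the posterior ligand (chr5:28456815-28467256, minus strand, GRCm38), was read at E10.5 only among these libraries. Its level at E10.5 was 2.46 CPM (95% Poisson interval 1.96 to 3.05), and it had 0 counts at E12.5 and E15.5. The E10.5 pools held 1, 81 and 1 counts, or 0.0805, 6.89 and 0.105 CPM. Of the 83 counts, 83.1% came from 1 cell of the second pool. At a floor of 3 counts over a stage, Shh was at least 37.7-fold lower at E12.5 and also at E15.5 than at E10.5. That bound rests on the second pool, without which the E10.5 level was 0.0909 CPM. A count of Shh was found in 4 of 119 cells at E10.5, or 3.36% (exact Clopper-Pearson interval 0.923 to 8.38%). The 0 of 158 cells at E12.5 allow a share of up to 1.90%, and the 0 of 200 in the oldest sample up to 1.5%. Molecular identifiers were not found in the sources, so intervals and floors here cover counting error only. An antisense transcript, 9530036O11Rik, shares 446 exonic bases with Shh, and it had 0 counts in all 4 Shh cells. Another on that strand, Gm26894, shares 361 and was not among the counted genes.

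The other Hedgehog ligands, which are not members, were read in single cells. Ihh stood at 0.0593, 2.22 and 2.82 CPM in the order of the stages, with a count in 1, 4 and 5 cells. Dhh, the ligand known from Schwann cells and gonads, was read in 1 cell at E10.5 and 1 at E15.5. Neither passed the rule for a change in any comparison. Thus 6, 4 and 6 cells per stage held a count of any ligand, and the ligand was Shh in 4 of the 6 at E10.5 and Ihh in all 4 at E12.5 and in 5 of the 6 at E15.5.

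Ptch1, the receptor gene that the pathway itself switches on (chr13:63508328-63573598, minus strand), was read in few cells at every stage. Its level was 1.07, 2.91 and 1.72 CPM at the 3 stages in order, with counts in 6, 7 and 7 cells. By pool it ran from 0.483 to 1.46 CPM at E10.5. It ran from 0 to 11.7 CPM at E12.5. At E15.5 it ran from 0 to 8.28 CPM, so the stages overlapped. The log2 ratio was 0.38 at E12.5 against E10.5 and -0.24 at E15.5 against E12.5. A single cell of the sixth pool held 70 of the 134 counts of E12.5. Without that pool the E12.5 level was 0.857 CPM and the E12.5 against E10.5 ratio -0.05. The ninth pool held 67 of the 79 counts of E15.5, and without it that level was 0.316 CPM. Ptch1 thus had the sparsest signal among the members after Shh. Its shares of 5.04%, 4.43% and 3.50% of cells became 2.61%, 2.68% and 1.62% when cells were thinned to 50000 counts each. Thinned shares here and below leave out cells with fewer counts, so for whole stages they cover 115, 149 and 185 cells.

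Gli1, the GLI factor that is itself a standard readout of Hedgehog activity (chr10:127329882-127341974, minus strand), has a limit that bears on every value given for it. Its last exon overlaps the last exon of Arhgap9, a gene known from blood cells, on the opposite strand. In GENCODE M21 they share the 62 bases chr10:127329882-127329943. Counts of the 2 genes tracked each other from cell to cell, with Spearman correlations of 0.95, 0.93 and 0.89 at the 3 stages. Both were read in 162 cells, Gli1 alone in 7 and Arhgap9 alone in 13. In 82 of the 169 cells with Gli1 (48.5%) the 2 counts were identical. The sources do not state that the counting used the strand, so reads of these 2 genes cannot be told apart here, and up to 68.0% of the Gli1 counts could be shared ones. In 9 cells with at least 10 counts of the leukocyte genes Ptprc, Tyrobp or Csf1r, Arhgap9 had 113 counts and Gli1 had 10. Another antisense gene, Gm47200, shares 265 exonic bases with Gli1 and was not among the counted genes. Gli1 counts beyond those of Arhgap9 may therefore still hold antisense reads.

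**Figure D2:**
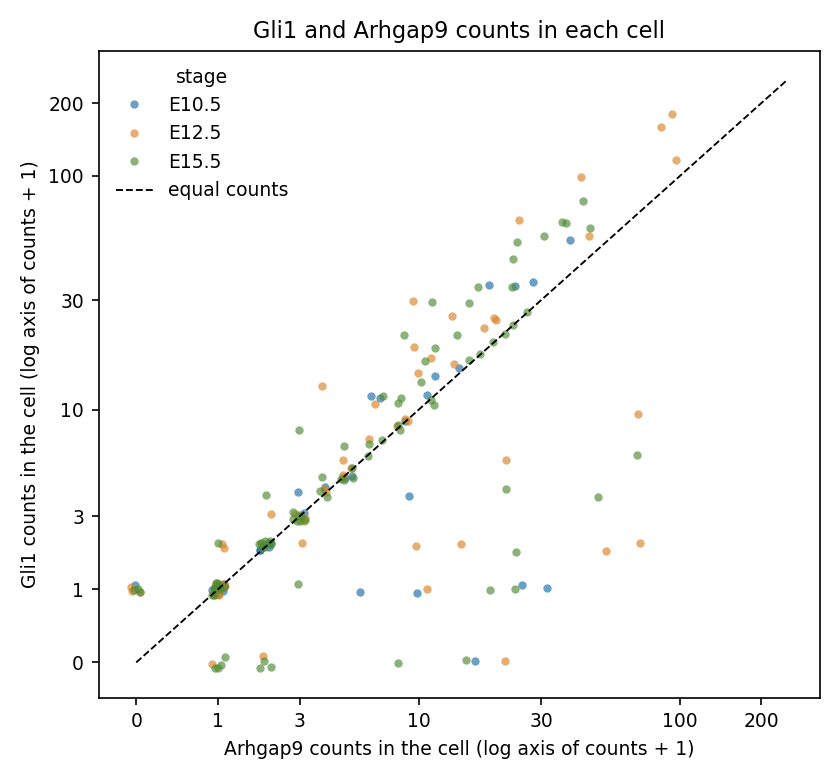
Gli1 counts (y axis) against Arhgap9 counts (x axis) in each cell with either, on log axes of counts + 1 and slightly jittered, by stage, with a dashed line at equal counts. On the line lie 82 cells, above it 67 and below it 33.

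As deposited, Gli1 stood at 8.30, 21.6 and 21.1 CPM from the earliest to the latest stage. The E10.5 pools held 5.28 to 13.0 CPM, the E12.5 pools 9.97 to 55.0 and the E15.5 pools 10.7 to 29.0, so every pair of stages overlapped. The log2 ratio was 1.00 at E12.5 against E10.5 and 0.97 at E15.5 against E10.5, and neither was called. Both became calls without the first pool, at 1.33 and 1.30, under a rule that is easier to pass with fewer pools. The E12.5 ratio also became a call without the seventh pool (1.26), and the E15.5 ratio without the eighth (1.15). Without the sixth pool, which held 478 of the 994 counts of E12.5, the level there was 13.8 CPM and the E12.5 against E10.5 ratio 0.50. Arhgap9 itself moved by 0.78 and 0.80 in the same comparisons. Gli1 counts beyond those of Arhgap9 in the same cell summed to 61, 358 and 300, or 1.81, 7.78 and 6.52 CPM. They came from 10 of 119, 25 of 158 and 32 of 200 cells, and the shares of the later stages were 15.8% and 16.0%. That remainder gave 0.91 at E12.5 against E10.5 and 0.76 at E15.5 against E10.5, again without a call. The sixth pool held 208 of the 358 counts, and without it the remainder was 4.02 CPM at E12.5 and the ratio to E10.5 was 0.41. Without the first pool, which held 36 of the 61 counts of E10.5, the remainder was 1.17 CPM there. The E12.5 ratio of the remainder became a call without the first pool (1.05) or the fourth (1.10). With all pools, neither measure of Gli1 was called.

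Gli2, the main activator of the family (chr1:118834132-119053619, minus strand), overlaps no other gene's exons. Its level was 27.2, 48.3 and 39.9 CPM, with counts in 47, 71 and 67 cells. The E12.5 pools held 34.4 to 63.0 CPM and the E10.5 pools 18.8 to 31.3, without overlap. The log2 ratio of 0.73 at E12.5 against E10.5 stayed under the threshold. At E15.5 the pools held 26.0 to 57.8 CPM and overlapped both earlier stages. Within a stage Gli2 was uneven, since the 5 cells with most counts held 38.1%, 50.7% and 33.4% of its sum. In cells with a count the median was 9, 7 and 16 counts and the highest 99, 400 and 168.

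Gli3, the main repressor of the pathway in the limb (chr13:15463235-15730026, plus strand), was read in the largest share of cells of any member at each stage and fell over the span. Its level was 421 (414 to 428), 297 (292 to 302) and 167 (163 to 171) CPM from E10.5 to E15.5, with E12.5 between. The pools held 420.5, 460.3 and 372 CPM at E10.5, then 318, 299.5, 268 and 295 at E12.5, and 75.3, 245, 154, 214 and 178 at E15.5. No pool of a later stage reached any pool of an earlier one. At E15.5 Gli3 was 2.52-fold lower than at E10.5, a log2 ratio of -1.31 that was called, and the steps of -0.50 at E12.5 against E10.5 and -0.81 at E15.5 against E12.5 were each under the threshold. Gli3 was read in 115 of 119, 130 of 158 and 142 of 200 cells, or 96.6%, 82.3% and 71.0%. After thinning to 50000 counts these were 87.0%, 75.2% and 64.3%. The median count in cells that read it was 90, 61 and 28. With any 1 pool left out the E15.5 against E10.5 log2 ratio stayed past the threshold, from -1.46 to -1.08. The call also held without the epithelium-like, endothelium-like and muscle-like cells, at -1.12. Gli3 shares 188 exonic bases with Gm6556 on the opposite strand, and reads of the 2 cannot be told apart without strand.

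Hand2, a helix-loop-helix factor of the posterior limb bud (chr8:57320983-57324633, plus strand), was highest at E12.5. Its level was 53.8 (51.4 to 56.4), 115 (112 to 118) and 40.0 (38.2 to 41.9) CPM. The pools held 38.4, 62.9 and 62.7 CPM at E10.5, then 108, 103, 91.2 and 144 at E12.5, and 25.5, 40.5, 19.9, 65.2 and 51.0 at E15.5. All E12.5 pools lay above all pools of both other stages, which overlapped each other. Hand2 was 2.14-fold higher at E12.5 than at E10.5, a log2 ratio of 1.03 that lay just inside the threshold. That call was lost without the first pool (0.82), without the seventh (0.86) and with TMM scaling (0.86). At E15.5 it was 2.87-fold lower than in the E12.5 sample (-1.41), which was called. With any 1 pool left out that ratio stayed past the threshold, from -1.59 to -1.25. Cells with a count numbered 67 of 119, 118 of 158 and 82 of 200, or 56.3%, 74.7% and 41.0%, and 33.0%, 56.4% and 33.0% after thinning. The median count in those cells was 6, 25 and 7, so at E12.5 a larger share of cells read Hand2, with a higher median count. Of the 118 cells of E12.5, 18 held exactly 1 count. Hand2 shares 461 exonic bases with the antisense gene Hand2os1, and reads of the 2 cannot be told apart without strand.

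Grem1, the BMP antagonist (chr2:113746164-113758646, minus strand), came from few cells with many counts. Its level was 21.3 (19.8 to 23.0), 4.48 (3.89 to 5.13) and 9.88 (9.00 to 10.8) CPM. The pools held 27.5, 16.3 and 19.6 CPM at E10.5, then 7.00, 8.60, 0.575 and 1.59 at E12.5, and 4.44, 10.1, 18.1, 16.1 and 5.00 at E15.5. All E12.5 pools lay below all E10.5 pools, and the E15.5 pools overlapped both. At E12.5 Grem1 was 4.77-fold lower than at E10.5, a called log2 ratio of -1.47. That call was lost at -1.15 without the cell with most counts in each pool, because the pools then overlapped, and at -1.12 as a mean of the cells' own CPM. Counts were found in 12, 8 and 14 cells, or 10.1%, 5.06% and 7.00%, which became 7.83%, 2.68% and 4.32% after thinning. The 5 cells with most counts held 92.4%, 96.6% and 89.0% of the sum.

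**Figure D3:**
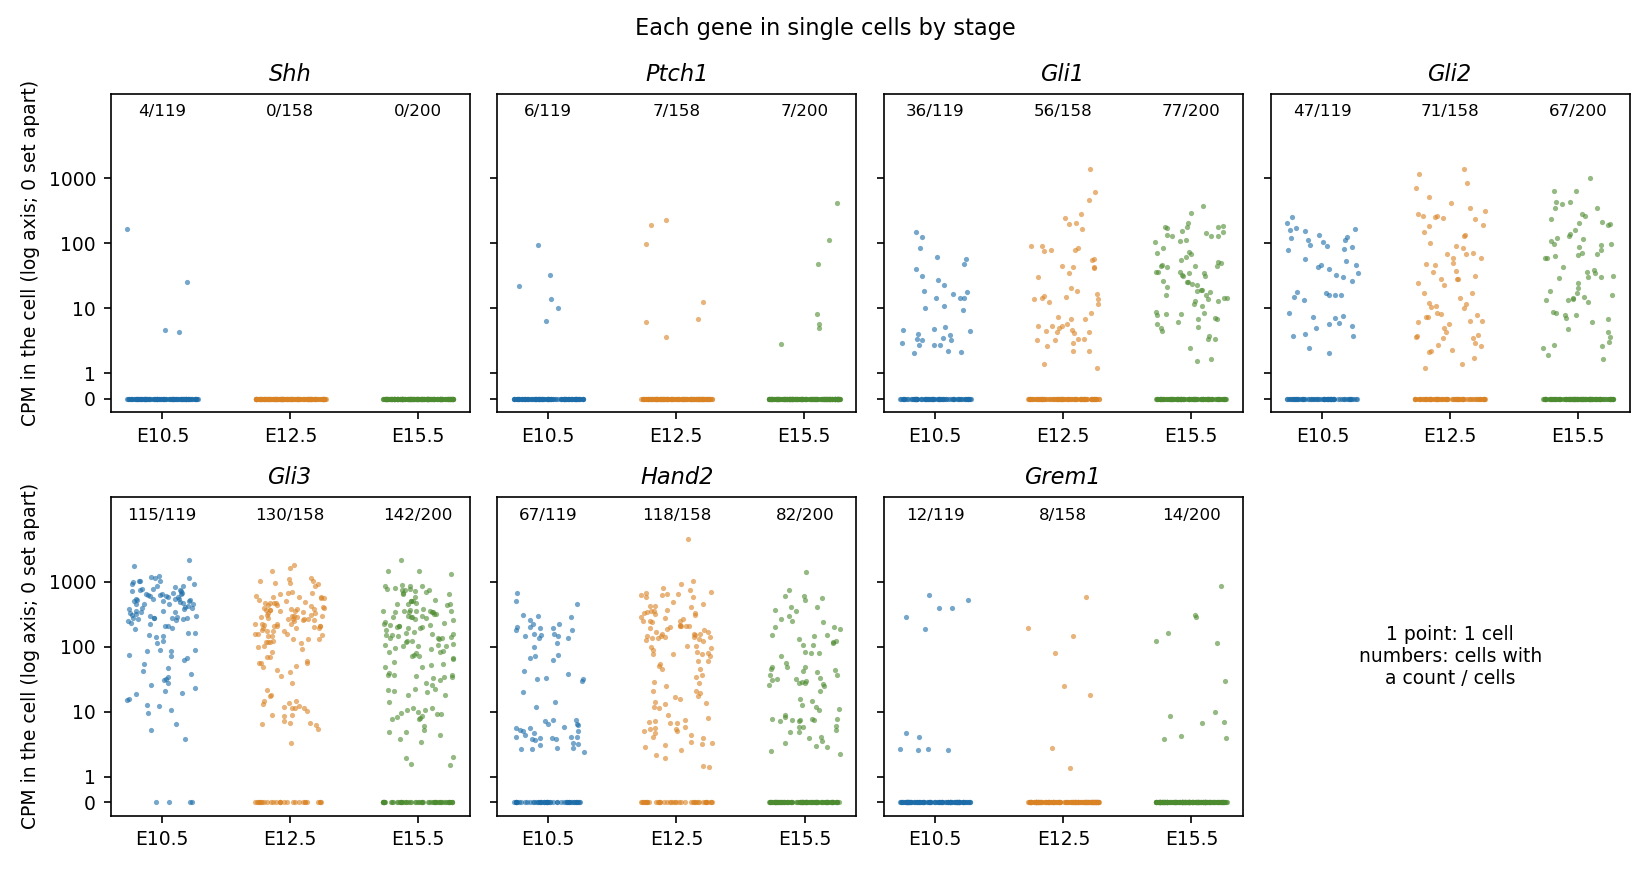
CPM of each member in each single cell by stage (y axis logarithmic, with cells at 0 set apart at the bottom and points spread sideways at random). The numbers above give cells with a count over all cells. Gli3 is read in 115 of 119 cells at E10.5 and 142 of 200 at E15.5, while Shh, Ptch1 and Grem1 lie at 0 in most cells.

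Cells with at least 10 Grem1 counts numbered 6, 4 and 6 at the 3 stages, and other genes in them differed by stage. The 6 cells of E10.5 held 49 to 191 Grem1 counts and 18 to 146 Gli3 counts. None of them had a count of Dcn, the connective tissue proteoglycan decorin, and 5 of 6 read Tbx5. The 6 cells of E15.5 held 35 to 123 Grem1 counts, and all 6 read Dcn (36 to 1433 counts) and Col1a1 (140 to 2473). Of the 4 cells of E12.5, 2 read Dcn and 3 read Gli3. Cartilage genes were also read in some of these cells. Col2a1 ran from 14 to 1289 counts in the 4 cells of E12.5 and from 1 to 1282, with a median of 4.5, in the 6 of E15.5, and was at 0 in all 6 of E10.5. Sox9 reached 500 counts at E12.5, and Acan 174 at E15.5. Dcn was read in no strong Grem1 cell at E10.5 and in all of them at E15.5, and Dcn is a general marker of connective cells at the later stage. Remaining Grem1 cells held few counts, with exactly 1 count in 6 of 12, 2 of 8 and 4 of 14.

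Clusters were made without the 7 members, so that their levels could be read across them. At E10.5, 114 of 119 cells formed a limb bud mesenchyme-like cluster and 5 were endothelium-like. In the mesenchyme-like cells Gli3 stood at 440.3 CPM, Gli2 at 28.2, Gli1 at 8.83 and Hand2 at 56.5. In the 5 endothelium-like cells Gli3 stood at 132 CPM and Hand2 at 14.4, with 76.1% and 87.1% of those counts from 1 cell. The Grem1 level of 61.2 CPM there was also 1 cell, with 99.2% of the counts. The members were therefore read mainly in the mesenchyme at E10.5, where nearly all cells were of that kind.

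At E12.5 the largest clusters were cluster 3 with 74 cells and cluster 2 with 53. There were also 11 cells of a cluster led by protocadherin alpha genes, 7 epithelium-like and 7 muscle-like. Listed markers (Dcn, Lum, Col3a1 and Osr2) gave the protocadherin-led cluster a connective-like name, but it is left unnamed here. By its leading markers cluster 3 was limb bud mesenchyme-like and cluster 2 cartilage-like, but a name is that of the cluster and not of each cell. At least 100 counts of Col2a1 were found in 24 of 74 cells of cluster 3 and 17 of 53 of cluster 2, so these clusters are given by number. Gli3 stood at 373.5 CPM in cluster 3 (346 to 455 by pool) and 217 in cluster 2 (140.2 to 271), without overlap of the 4 pools. Hand2 was at 114.5 CPM and 120.1 CPM in the same clusters, but was read in 67 of 74 cells of cluster 3 (90.5%) and 29 of 53 of cluster 2 (54.7%). After thinning those shares were 72.2% and 40.4%, so a smaller share of cluster 2 cells read Hand2. Gli1 stood at 15.3 and 30.5 CPM and overlapped by pool, and 1 cell held 50.3% of the counts in cluster 2. In the unnamed cluster Gli1 reached 107 CPM and Gli2 108, with 58.9% and 95.3% of those counts from 1 cell each.

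At E15.5 there were 62 and 68 cells in clusters 4 and 7, both led by connective tissue markers, besides 28 epithelium-like, 11 muscle-like and 10 endothelium-like cells, 10 of cluster 2 and 8 of the unnamed cluster. Cluster 4 was mixed, with at least 100 counts of Col2a1 in 18 of 62 cells and of Dcn in 19. In cluster 7 these were 6 and 46 of 68 cells, and in cluster 2 they were 3 and 2 of 10. Gli3 was at 217 CPM in cluster 7 (158.5 to 399) and 85.6 in cluster 4 (26.8 to 155.5), without overlap of the 5 pools. It was read in 57 of 68 and 39 of 62 cells of these clusters. Gli2 (54.6 and 59.1 CPM), Hand2 (44.3 and 48.5), Gli1 (19.5 and 24.5) and Grem1 (13.4 and 19.9) overlapped by pool between clusters 7 and 4. Gli3 was also at 501 CPM in the 10 cells of cluster 2, with 6 cells reading it and 38.4% of the counts from 1. The epithelium-like, muscle-like and endothelium-like cells held 0, 0 and 1.04 CPM of Grem1. Clusters 4 and 7 held most of the Gli2 and all but a few counts of Grem1 at this stage.

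**Figure D4:**
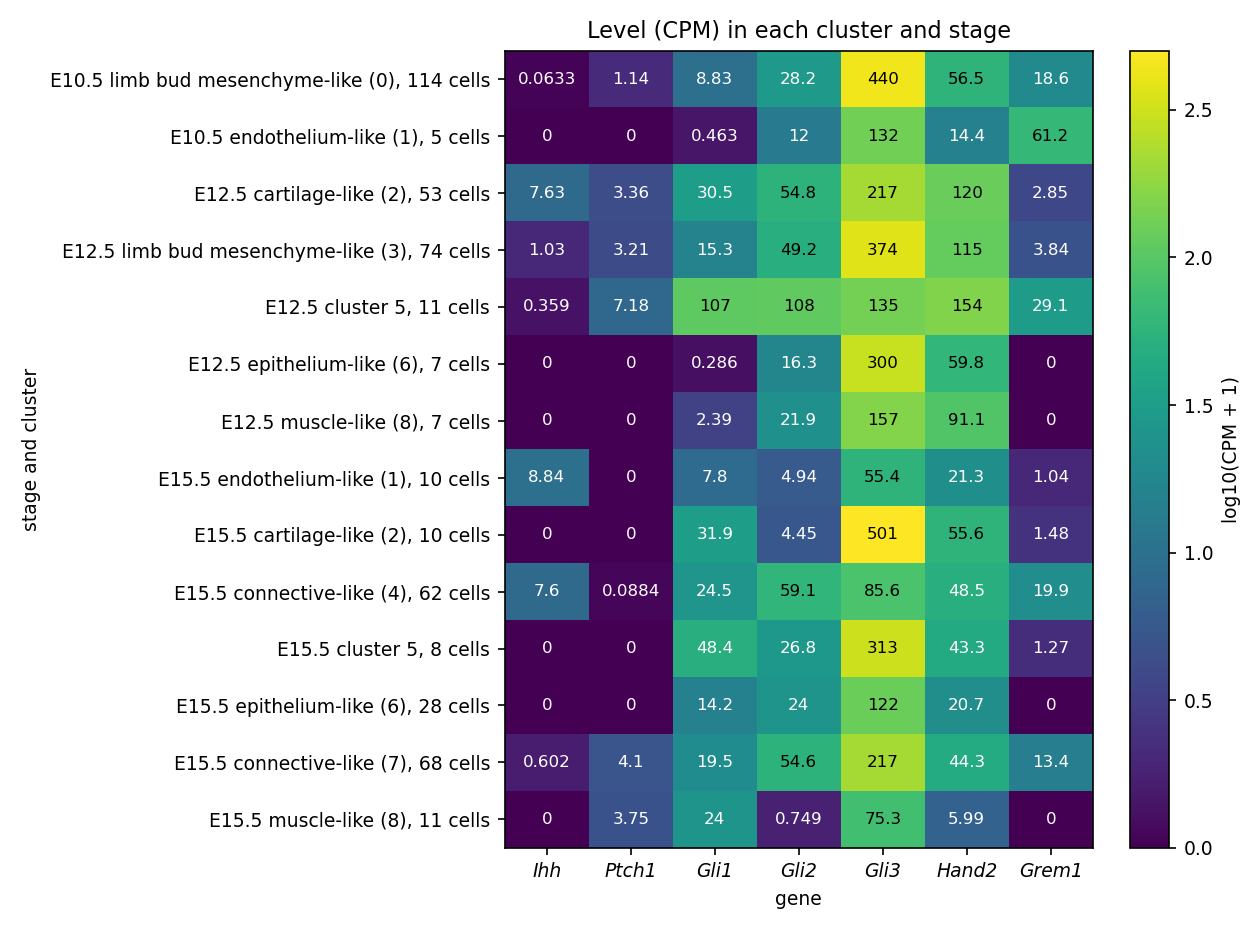
Level in CPM of Ihh and of the members other than Shh (columns) in each cluster of at least 5 cells at each stage (rows, with cluster number and cells), coloured by log10(CPM + 1). Gli3 is at 440.3 CPM in the E10.5 mesenchyme-like cells and 85.6 CPM in cluster 4 at E15.5, and Ptch1 is below 8 CPM in every row.

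Limb epithelium, which should lack most Hand2 and Grem1, gave a measure of background. In the epithelium-like cells Hand2 had a count in 6 of 7 cells of E12.5 and 10 of 28 of E15.5, which is 85.7% and 35.7%. After thinning the shares were 14.3% and 22.2%, against 56.4% and 33.0% of all thinned cells at these stages. At E12.5, 93.3% of the epithelium-like Hand2 counts came from 1 cell. The E12.5 share of Hand2 in all cells thus exceeded that in the epithelium-like cells only after thinning, and these 7 cells were deeper, with a median of 574172 counts. Grem1 had no count in the 35 epithelium-like cells. Gli3 was at 299.9 and 122 CPM in the epithelium-like cells of E12.5 and E15.5, with 49.3% and 43.9% of the counts from 1 cell, so those levels rest on few cells.

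The 4 cells with Shh were all limb bud mesenchyme-like cells of E10.5, and all 4 read Hand2 and Gli3. The cell with 69 Shh counts (162 CPM) held 1 count of Hand2, 60 of Gli3, 175 of the posterior HOX gene Hoxd13 and 77 of the limb margin factor Tbx3, and none of Gli1, Gli2, Ptch1 or Tbx5. The cell with 12 Shh counts held 84 of Hand2, 15 of Gli3, 8 of Gli2, 1 of Gli1, 19 of Bmp2 and 149 of Tbx5. Each of the other 2 held 1 Shh count, with 34 and 33 of Hand2. Shh and Hand2 were read together in 4 cells where 2.29 were expected from the shares within pools. Among cells above the range of crosstalk (3 or more counts, which also make up over 0.5% of that gene's counts in the pool) 2 cells kept Shh and 1 of them kept Hand2. No Shh cell read Ptch1, with 0.226 cells expected, so a joint reading was not detectable at this depth.

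Some cells with Ihh at the later stages held many counts of cartilage genes and others did not, and they did not share 1 cluster. The E12.5 cell with 75 Ihh counts, from the sixth pool, held 2750 of Col2a1, 314 of Sox9, 118 of Runx2 and 283 of Pth1r, the PTHrP receptor of cartilage, with 4 of Ptch1 and 9 of Gli1. Its Arhgap9 count was also 9. A cell of cluster 3 and the fifth pool with 8 Ihh counts held 47 of Col10a1, the collagen of enlarged cartilage cells, and 405 of Sox9. The E15.5 cells with 39 and 47 Ihh counts, both of cluster 4, held 1375 and 320 of Col2a1 and 78 and 27 of Acan, the cartilage aggrecan. Others held few or none, among them an E12.5 cell with 18 Ihh counts and 1 of Col2a1, an E15.5 cell with 9 Ihh counts, 1 of Col2a1 and 1896 of Col1a1, and an endothelium-like cell with 34 Ihh counts, many of Cdh5, the endothelial cadherin, and the highest total of any cell. Gli1 was read in all 4 Ihh cells at E12.5, with 1.52 expected, and in 3 of 5 at E15.5, with 2.13 expected. After thinning these were 1 of 3 cells, with 0.759 expected, and 2 of 3, with 0.995 expected. Above the crosstalk range they were 2 of 3, with 0.661 expected, and 2 of 4, with 1.18 expected. In 3 of the 4 cells of E12.5 the Gli1 and Arhgap9 counts were equal.

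Response to ligand was read from Gli1, Ptch1 and Hhip, a Hedgehog-binding inhibitor that the pathway induces. Hhip stood at 0.385, 10.6 and 12.1 CPM at the 3 stages. The E15.5 against E10.5 difference of 31.3-fold was called and rests on 13 counts at E10.5. It was 291-fold without the third pool and 19.8-fold without the first. The E12.5 against E10.5 log2 ratio of 1.53 was not called, and the seventh pool held 324 of the 487 counts of E12.5. Hhip was read in 3, 18 and 14 cells of the 3 stages. Gli1 or Ptch1 was read in 41, 59 and 79 cells, and both in 1, 4 and 5, with 1.88, 2.73 and 3.00 expected. With Gli1 counted only beyond Arhgap9, both were read in 0, 1 and 3 cells, with 0.528, 1.42 and 1.33 expected. Above the crosstalk range both Gli1 and Ptch1 were read in 0, 2 and 2 cells, with 0.754, 1.39 and 0.925 expected. Joint reading of the 2 standard targets was therefore rare. It was under its expected number at E10.5 and over it at E15.5 by each of these measures, with few cells in each.

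Cells that read 2 of these 3 targets numbered 2, 10 and 13, and cells that read all 3 numbered 0, 1 and 1. The E12.5 cell with all 3, from the seventh pool, held 202 counts of Hhip, 97 of Gli1 (44 of Arhgap9), 20 of Ptch1, 286 of Gli2 and 393 of Gas1, a Hedgehog co-receptor. The E15.5 cell, from the ninth pool, held 117 of Hhip, 60 of Gli1 (45 of Arhgap9), 38 of Ptch1, 135 of Gli2 and 253 of Gli3. Both read Dcn, with 289 and 237 counts, and neither had a count of any ligand. Hhip and Gli1 were read together in 1, 8 and 10 cells, with 0.975, 6.61 and 6.10 expected. At E15.5 Hhip and Gli2 were together in 11 cells with 4.75 expected, and Hhip and Gli1 beyond Arhgap9 in 8 with 2.40 expected. Above the crosstalk range Hhip and Gli2 were together in 5 with 2.60 expected. Cells with 2 targets at E15.5 also had more counts, a median of 274067 against 181344 in cells with none of the 3, and the part of depth in this was not tested.

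The 2 cells of E12.5 with most Ptch1, both of the sixth pool, did not read all 3 targets. One held 70 Ptch1 counts with 1 of Gli1, and was in cluster 3. The other held 28 Ptch1 counts with none of Gli1, and was in cluster 2. At E15.5 the second highest Ptch1 cell held 27 counts with 11 of Gli1 and 11 of Arhgap9. Of the 4 cells with most Ptch1, the one with all 3 targets was therefore the only one with more than 11 Gli1 counts.

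Most pairs of members were read together about as often as their shares gave. The expected number was the product of the shares within each pool, and no test was made, since cells of a stage share 1 sample. Gli2 and Gli3 were together in 46, 66 and 60 cells with 45.5, 58.6 and 49.5 expected. Gli1 and Gli2 were together in 15, 28 and 34 cells with 14.3, 25.8 and 25.6 expected. At E15.5 both pairs were read more often than expected. After thinning, Gli2 and Gli3 were together in 36 cells with 31.4 expected, and Gli1 and Gli2 in 14 with 12.9 expected. Above the crosstalk range the pairs stood at 32 with 24.3 expected and 18 with 12.3 expected. Cells with Gli2 at E15.5 had a median of 282359 counts against 166919 in cells without it. Gli1 with Gli2 was thus near its expected number at equal depth, and above it among cells with at least 3 counts of each.

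Gli1 and Hand2 were together in 26 cells at E10.5 with 20.3 expected, in 46 at E12.5 with 41.8, and in 31 at E15.5 with 30.9. At E10.5 the thinned count was 10 with 5.47 expected and the count above crosstalk 8 with 4.73 expected. That pair was therefore over its expected number by each measure at E10.5, with few cells in each, and is 1 of 63 pair and stage counts. Of the 36 cells with Gli1 at E10.5, 35 also read Arhgap9. The pair was not recounted with Gli1 beyond Arhgap9. Gli3 and Hand2 were together in 65, 103 and 62 cells with 64.8, 97.9 and 59.2 expected. Gli2 and Hand2 were together in 32, 55 and 25 cells with 26.6, 53.8 and 28.0 expected. Grem1 was read with Gli2 in 8 of its 12 cells at E10.5, with 4.53 expected and 6 with 2.23 expected after thinning. Grem1 and Ptch1 were together in no cell of any stage, with 0.430, 0.380 and 0.475 expected.

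**Figure D5:**
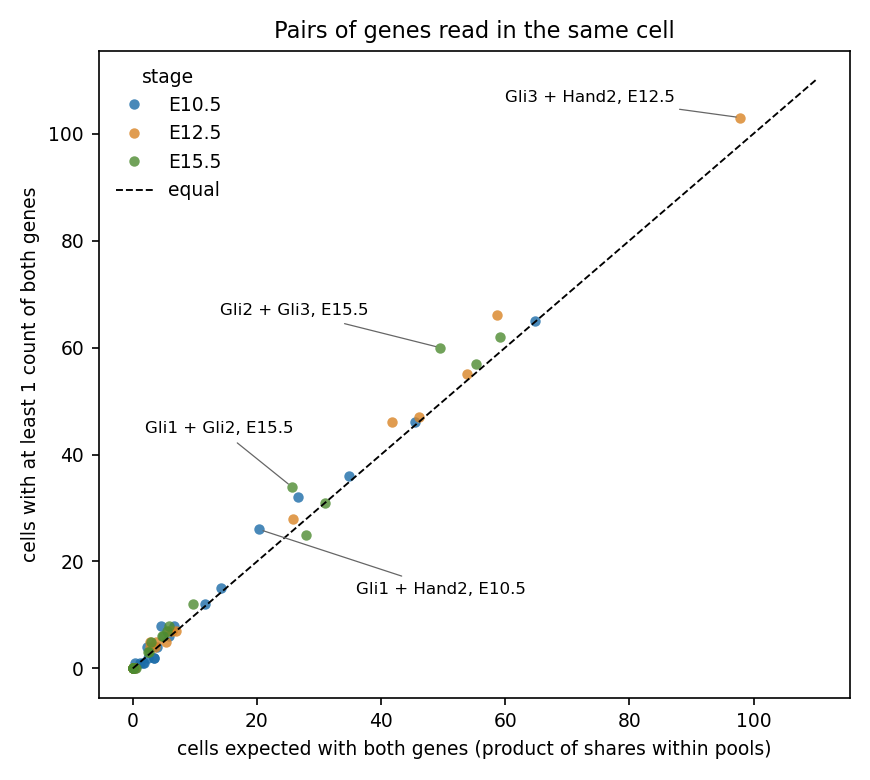
Cells with at least 1 count of both genes of a pair (y axis) against the number expected from the shares within library pools (x axis) for pairs of members at each stage, with a dashed line at equality. Most points lie near the line, and Gli2 with Gli3 at E15.5 (60 against 49.5 expected) lies farthest above it in cells.

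Of the 3 GLI genes, Gli3 alone was the most common pattern. Gli3 without Gli1 or Gli2 was read in 48, 44 and 56 cells, or 40.3%, 27.8% and 28.0%. All 3 were read in 15, 27 and 31 cells, with 12.6% at E10.5 and 17.1% at E12.5. Cells with all 3 were deeper, with a median of 365598 counts at E10.5 against 216890 in cells with Gli3 alone. None of the 3 was read in 3, 15 and 34 cells, or 2.52%, 9.49% and 17.0%, with medians of 81546, 52594 and 130289 counts. Cells without a GLI count thus had lower totals than most.

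Of the other genes of Hedgehog signalling, the co-receptors Gas1 and Boc were called higher at both later stages against E10.5. Of 7 surface genes tested, 2 were called higher at E12.5 against E10.5 and 0 lower, and 3 were higher at E15.5 against E10.5. Of all genes, 7.76% and 11.2% were called higher in these comparisons. Gas1 stood at 374 CPM at E12.5 against 149.8 at E10.5, and the co-receptor Boc at 142 against 58.6. The Boc call was lost without the first pool, at 0.95. The list's median log2 ratio was 0.58 at E12.5 and 0.86 at E15.5 against E10.5, beside 0.16 and 0.15 over all genes. Of 6 ligand and release genes, Scube1, a secreted release factor, was 3.34-fold lower at E12.5 (49.7 against 166 CPM). Scube2 of the same family stood at 45.0 CPM at E15.5 with 0 counts at E10.5, and at 26.8 CPM without the eighth pool, which held 1138 of its 2071 counts. Of 14 intracellular genes, Evc, a ciliary partner of Smoothened, was called higher at E12.5 (49.1 against 12.9 CPM, 3.79-fold, and 8.23-fold without the first pool), beside 7.76% of all genes. At E15.5 against E10.5 the ciliary GTPase gene Arl13b (34.2 against 12.1 CPM) and the kinase gene Ulk3 (7.52 against 1.10 CPM) were called higher, beside 11.2% of all genes. Arl13b lost its call without the twelfth pool (0.97), and Ulk3 without the third (0.98), the tenth (0.79) or the twelfth (0.93). At E15.5 against E12.5, no gene of these 3 lists was called.

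Of 9 listed targets of the pathway, which include Gli1 and Ptch1, 1 was called higher and 1 lower at E12.5 against E10.5, beside 7.76% and 2.83% of all genes. Bcl2, a survival gene, stood at 257 CPM at E12.5 against 85.6 at E10.5, and Mycn, a transcription factor of dividing cells, at 11.4 against 80.3. At E15.5 against E10.5, Hhip and Foxc2 were higher and Mycn lower. All Foxc2 counts of E10.5 lay in the third pool. The median of the list was 0.38, -0.12 and 0.15, beside 0.16, -0.04 and 0.15 over all genes. At E15.5 against E12.5 Bcl2 was called lower, and lost that call with any of 4 pools left out (6, 8, 9 or 12). The targets had no common direction.

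Several posterior and anterior genes of the limb bud were called changed at E12.5. Of 14 posterior genes tested, 5 were called higher and 1 lower at E12.5 against E10.5, beside 7.76% and 2.83% of all genes. Beside Hand2, Hoxd13 stood at 453 CPM at E12.5 against 48.1 at E10.5, Bmp2 at 78.4 against 6.25 and Osr1 at 51.9 against 7.32. Hoxd12 stood at 75.5 CPM at E12.5 and had 3 counts at E10.5. Etv4, a target of FGF signals, was lower at 6.50 against 23.2 CPM. At E15.5 against E12.5, Hand2, Hoxd12 and Hoxd13 were lower and Jag1 higher. Hand2 thus shared its direction in both steps with Hoxd12 and Hoxd13. Of 11 anterior genes, 3 were called higher and 5 lower at E12.5 against E10.5, beside the same shares of all genes. Asb4 was at 156 against 1320 CPM, Irx3 at 10.3 against 51.4 and Alx4 at 8.28 against 28.6. Irx3 was 5.00-fold lower, and 10.1-fold lower without the fifth pool.

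In the loop of Grem1, BMPs and ridge FGFs, 2 of 11 genes were called higher and 2 lower at E12.5 against E10.5, beside 7.76% and 2.83% of all genes. Bmp2 and Fgf9 were higher, and Grem1 and Bmp7 lower. Fgf9 was 20.5-fold higher, and 42.1-fold without the second pool. Bmp7 stood at 10.7 against 30.1 CPM and lost its call without the third pool, at -0.76. At E15.5 against E12.5, Msx1, a BMP target, stood at 171 against 457 CPM and Msx2 at 6.23 against 29.1, both called lower. Grem1 and Bmp2 thus went opposite ways at E12.5, in few cells for Grem1. The median of the list was 0.33, 0.02 and 0.27, beside 0.16, -0.04 and 0.15 over all genes.

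Across cells of a stage, no gene other than Arhgap9 for Gli1 followed a member closely. The 5 genes most like each of Gli1, Gli2, Gli3 and Hand2 by Spearman correlation over 119, 158 or 200 cells were taken from genes read in at least 20% of them. Leaving Arhgap9 aside, these correlations ran from 0.25 to 0.40. Gli3 at E12.5 was nearest to Lhx2 (0.40), a distal mesenchyme factor, and Wnt5a, a distal signal, was among its 5 at 0.36. Gli2 at E10.5 was nearest to Rfx7 (0.40) and Hand2 at E12.5 to Atp2b1 (0.31). At such values in sparse counts that share depth, these neighbours are a description only.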

How the data were processed

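Per the labels' protocols, cells were captured singly on a Fluidigm C1 chip and their cDNA was prepared for sequencing with Nextera XT. The deposited table holds whole-number read counts per gene and cell from the authors, made with Bowtie2 and featureCounts on mm10 per the submitters' processing notes. Whether counting used the strand is not given in the sources used here. The table had 22738 entries for 22092 symbols. Entries of the 298 repeated symbols (0.101% of counts) were summed after identical copies were dropped, and 0 entries were mitochondrial. A further 1120 samples were not used here. All 480 columns matched a sample title.

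Cells with under 1000 detected genes were dropped and no doublet caller was run. Counts were summed by stage and by library pool and given as CPM. Ratios are log2 of CPM with 5 CPM added. As each stage is 1 sample, no p-value was computed. The log2 threshold was 1, with pools apart. Intervals are exact at 95%. Cells were clustered without the members (scanpy 1.11.5, Leiden, resolution 1), and clusters were named from listed markers. The connective-like name this gave the protocadherin-led cluster was not used. TMM factors came from edgeR 4.0.16 as an alternative scaling. The ratio step was tested on simulated data. Other alternatives were 1 CPM added, a mean of the cells' CPM, each pool left out, the cell with most counts in each pool left out, and all cells kept. Thinning used 50000 counts per cell and left out cells with fewer, which kept 115, 149 and 185 cells. Levels, and Gli1 counts beyond those of Arhgap9, were also taken without each pool, an alternative chosen after seeing the data.

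The members and gene lists were chosen with earlier results of these data known. Named genes were the members, called list genes of at least 20 CPM by size of ratio, the 5 nearest genes by correlation, class markers, Ihh and Dhh. Hhip, Foxc2 and genes of single cells outside that rule were chosen after their values were seen. Ulk3 and Fgf9 were also named although both lay under 20 CPM.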

Additional observations from a re-analysis of the deposited data

Results flagged for a closer look

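In 3 cases 1 library pool stood apart from the other pools of its stage, by a gap large against the range of the group. Only stages with at least 4 pools were checked, so E10.5 with 3 pools, and with it Shh in the second pool, was left out. If pool levels were normally spread, chance alone would flag about 1 in 20 such groups. Here single cells can set a pool's level. Ptch1 stood at 11.7 CPM in the sixth pool, of E12.5, where 70 of its counts came from 1 cell. In the ninth pool, of E15.5, Ptch1 stood at 8.28 CPM. Gli1 stood at 55.0 CPM in the sixth pool, and its counts beyond those of Arhgap9 came to 23.9 CPM there. The highest cell of that stage held 176 Gli1 counts.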

How the results depend on the processing

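No called ratio of a member changed sign under the alternatives run. Of 297 ratios recomputed, 283 kept their call or their lack of one. Most were uncalled to begin with, and Shh at E15.5 against E12.5, with 0 CPM in both, could not change. The Hand2 and Grem1 calls at E12.5 against E10.5 were each lost under some alternatives. With 1 CPM added, Shh passed the threshold at -1.79 in both comparisons with E10.5, and members called lower numbered 2 at E12.5 and 2 at E15.5. As a mean of the cells' CPM, Gli1 was called at 1.53 and Gli2 at 1.13 (E12.5 against E10.5) and Gli1 at 1.20 (E15.5 against E10.5), while Grem1 lost its call at -1.12. Members called higher were then 3 and called lower 0 at E12.5, and 1 was called higher at E15.5 against E10.5. With TMM scaling Hand2 lost its E12.5 call at 0.86, which left 0 called higher. Without the cell with most counts in each pool Grem1 lost its call at -1.15, which left 0 called lower. With 1 pool left out, Gli1 ran from 0.50 to 1.33 at E12.5 and from 0.81 to 1.30 at E15.5 against E10.5, Hand2 from 0.82 to 1.15 at E12.5 against E10.5, and members called higher at E15.5 against E10.5 from 0 to 1. The cause was not tested. Of 84 recomputed counts of genes called, all 84 stayed within 1.5 times. With 1 pool left out every such count was above that of all pools, since the rule is easier to pass with fewer pools. Genes called higher at E12.5 against E10.5 then numbered 1141 to 1326, against 1018 with all pools. Genes called lower at E15.5 against E12.5 numbered 232 to 296, against 214. An alternative chosen after seeing the data, without the epithelium-like, endothelium-like and muscle-like cells, changed no call of a member. Shares of cells depend on depth. Thinning to 50000 counts took Gli1 at E10.5 to 14.8% of the 115 cells that deep, against 30.3% of all 119 cells unthinned. No paired analysis was possible because each stage is 1 sample and cell numbers mark no pairs.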
